A study of Rattus with 6 samples.

Results

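In RC-4B/C, a pituitary adenoma line of the rat, the genes of the aminoacyl-tRNA synthetases were followed in 3 libraries labelled ASA (aspirin, acetylsalicylic acid, an inhibitor of the cyclooxygenases) and 3 libraries labelled DMSO (dimethyl sulfoxide, the solvent). Members were taken by gene symbol from the deposited exon table, as symbols of 1 letter followed by ars, with or without a final 1 or 2, together with Eprs, Farsa, Farsb and the scaffold genes Aimp1 and Aimp2. This gave 38 of 12801 genes, of which 20 encode cytosolic or shared enzymes, 16 encode mitochondrial enzymes and 2 encode scaffold proteins. The final 2 of Aimp2 does not mark a mitochondrial protein, and Mars2 was not analysed here. All libraries were made from polyadenylated RNA of the same line with a directional kit. The labels name no genotype or transgene for either group and give no dose, no duration and no statement that replicates were separate cultures. Every p-value therefore measures the spread between these libraries only. Replicates are numbered as the libraries were deposited, and the numbers pair nothing.

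Aminoacyl-tRNA synthetases join each amino acid to the tRNAs that carry it to the ribosome. Cytosolic translation and mitochondrial translation mostly use separate enzymes, all of them encoded in the nucleus, although a few genes such as Gars and Kars serve both compartments. Several cytosolic enzymes sit in a multisynthetase complex held together by scaffold proteins. When uncharged tRNA accumulates, the kinase GCN2 (Eif2ak4) phosphorylates the initiation factor eIF2, translation of the transcription factor ATF4 rises, and in human and mouse cells ATF4 raises transcription of many cytosolic synthetase genes along with genes of amino acid synthesis and uptake.

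The reads recovered in the listed exons numbered 66492448 to 92073426 in the ASA libraries and 82189700 to 94486062 in the DMSO libraries. Levels are given as RPKM, the reads per kilobase of a gene's listed exons scaled to 1000000 reads per library. Of the markers of prolactin cells, Prl had 14037, 62101 and 26174 RPKM in ASA replicates 1, 2 and 3, against 22006, 62170 and 41835 RPKM in DMSO replicates 1, 2 and 3, and was highest in the library numbered 2 of each group. The pituitary transcription factor gene Pou1f1 had 603 to 804 RPKM in ASA and 584 to 714 RPKM in DMSO, and Pomc, the corticotroph hormone precursor gene, had at most 2.62 RPKM in any library. ASA replicate 2 stood apart. The exons of 1 gene scattered within it by a median SD of 0.652 on the log2 scale over the 36 members with at least 2 listed exons, against 0.157 and 0.112 in ASA replicates 1 and 3 and 0.0643 to 0.0746 in the DMSO libraries. It had 497 exons with 0 reads in the whole table, against 4 to 13 in the other libraries. Of 8 macrophage markers 2 were in the table, with a summed level of 48.2 to 213 RPKM in ASA and 20.1 to 37.0 RPKM in DMSO. Cd68 made most of that sum in ASA. The other, Cd14, leaned the opposite way, with 3.28 to 19.3 RPKM in ASA and 18.2 to 34.5 RPKM in DMSO, with overlap. The defining markers Ptprc, Csf1r and Adgre1 are not among the genes analysed here. Of 6 fibroblast markers 2 were in the table, and their sum was 2138 to 3279 RPKM in ASA and 1104 to 1164 RPKM in DMSO, nearly all of it Dcn. The other, Lum, had 25.55 to 72.7 RPKM in ASA and 36.5 to 70.15 RPKM in DMSO, with overlap. Of 5 endothelial markers only Vwf was in the table, at no more than 0.865 RPKM. The part of these markers in the results was not tested. In bulk libraries a change in the number of expressing cells and a change in RNA per cell cannot be told apart.

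Cytosolic enzymes were the abundant ones. The median RPKM over the 20 cytosolic genes was 152, 94.1 and 156 in ASA replicates 1, 2 and 3, and 129, 153 and 142 in DMSO replicates 1, 2 and 3. Over the 16 mitochondrial genes it was 15.3, 8.69 and 17.1 RPKM in the ASA libraries and 13.7, 12.03 and 12.6 RPKM in the DMSO libraries. The cytosolic median was thus 9.90, 10.8 and 9.13 times the mitochondrial one in the ASA libraries and 9.42, 12.7 and 11.2 times in the DMSO libraries, and the groups overlapped. Mean levels over all 6 libraries ran from 381 RPKM for the seryl-tRNA synthetase gene Sars1 to 42.2 RPKM for the histidyl-tRNA synthetase gene Hars1 among cytosolic enzymes. Among mitochondrial enzymes they ran from 48.3 RPKM for the threonyl-tRNA synthetase gene Tars2 to 1.62 RPKM for the glutamyl-tRNA synthetase gene Ears2, which was listed with 1 of its 9 annotated exons and a mean of 66 reads. Tars2 was the 1 mitochondrial gene above the lowest cytosolic gene by mean level.

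**Figure D1:**
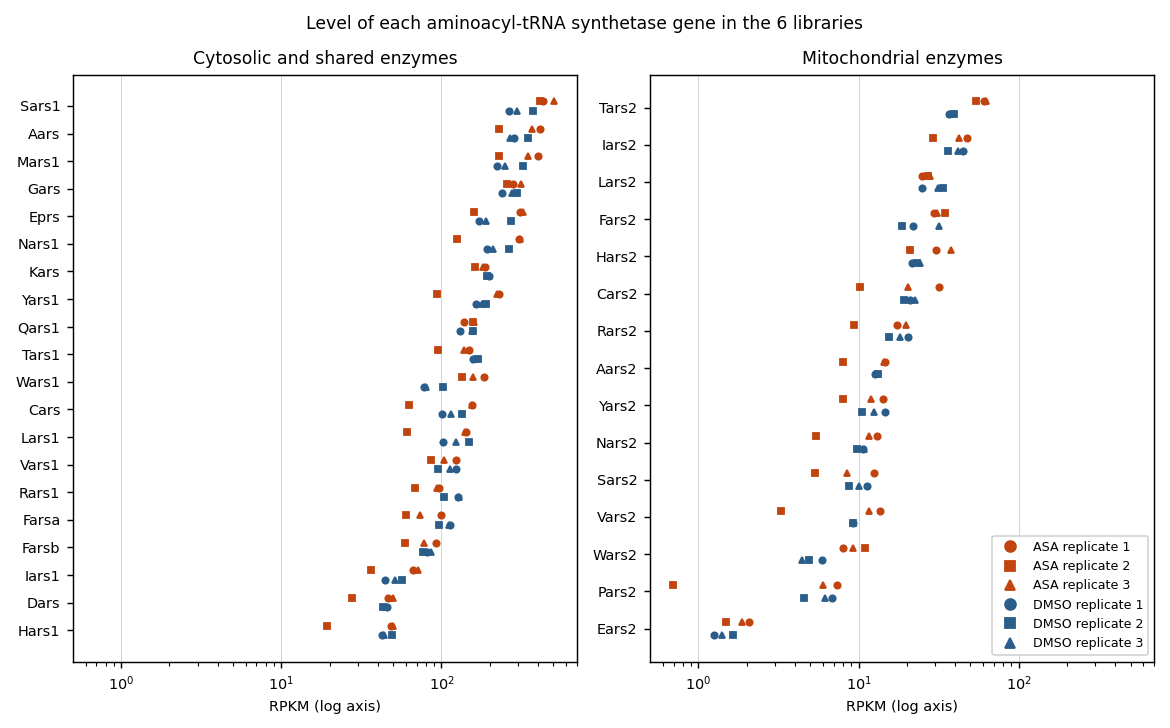
RPKM on a log axis for the 20 cytosolic or shared enzymes (left) and 15 mitochondrial enzymes (right), 1 point per library, with ASA in orange and DMSO in blue and genes ordered by mean level. Cytosolic means lie between 42.2 and 381 RPKM and mitochondrial means between 1.62 and 48.3 RPKM, and the orange square of ASA replicate 2 is the lowest of the 6 libraries for most genes.

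Aspirin treatment was accompanied by higher RNA of 2 of the 38 genes, Wars1 and Tars2, and by lower RNA of none. The test was limma on log2(RPKM + 0.1) over the 12502 genes whose mean RPKM reached 0.5, at a Benjamini-Hochberg adjusted p under 0.05, and all 38 members passed that filter. The share of members called higher, 5.26%, was near that of all tested genes, of which 6.21% were called higher and 4.99% lower. At an unadjusted p under 0.05 there were 6 members (15.8%), Wars1, Tars2, Wars2, Sars1, Aimp2 and Rars1, against 30.02% of all tested genes. The median log2 fold change was -0.05 over the cytosolic enzymes, 9 of 20 of them positive, and -0.13 over the mitochondrial enzymes, 6 of 16 positive, beside -0.06 over all tested genes. The cytosolic median was 0.07 after quantile normalization and 0.17 without ASA replicate 2, so its sign rested on those choices. The mitochondrial median was 0.27 without ASA replicate 2. The groups did not overlap for 4 members that were higher in ASA (Wars1, Wars2, Tars2, Sars1) and for 4 that were lower (Aimp2, Rars1, Tars1, Kars), against 19.9% and 18.8% of all tested genes. Without ASA replicate 3, and likewise without DMSO replicate 3, the limma fit called 0 genes in the whole table, with 2926 and 2345 genes at an unadjusted p under 0.05, so each call below is lost in those fits. The whole table had 1400 calls with all libraries, 91 without DMSO replicate 1 and 632 without DMSO replicate 2.

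**Figure D2:**
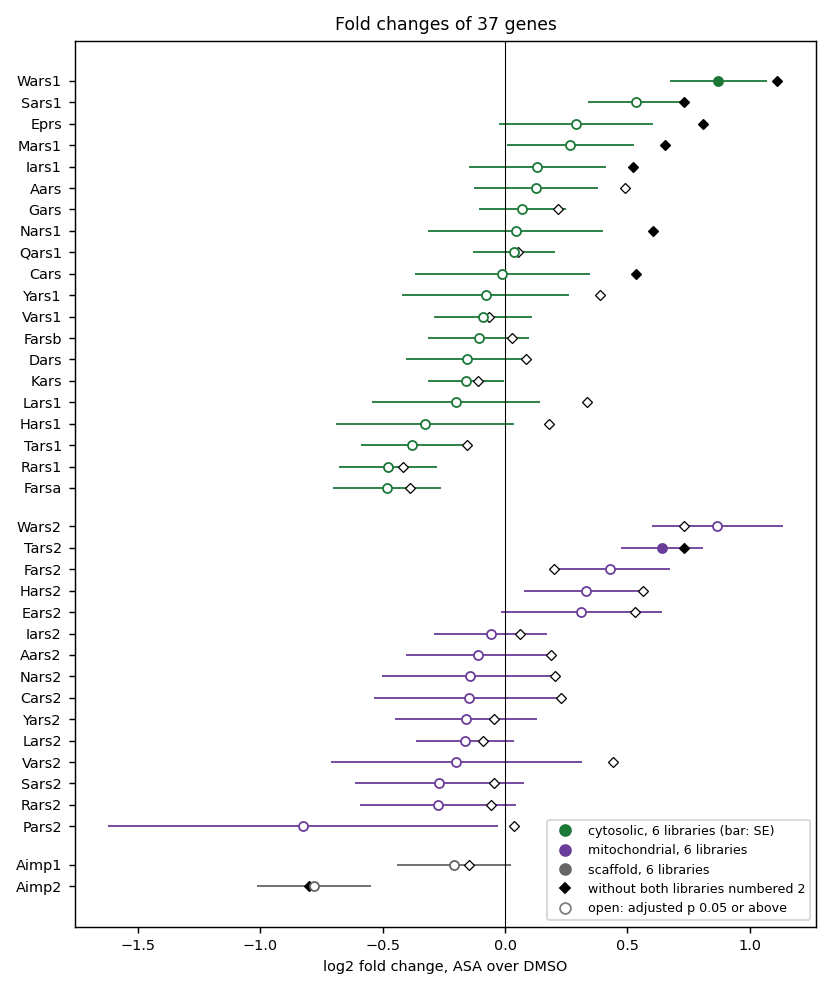
Log2 fold change, ASA over DMSO, of 37 of the genes with the standard error from the fit as a bar (circles), and the same without both libraries numbered 2 (diamonds), where a filled symbol marks an adjusted p under 0.05. With all 6 libraries only Wars1 (0.87) and Tars2 (0.64) are filled, and most diamonds lie to the right of their circles.

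Tryptophan was an amino acid whose cytosolic and mitochondrial enzymes were both higher in ASA, with log2 fold changes of 0.87 each, of which 1 passed the test. Wars1, the cytosolic tryptophanyl-tRNA synthetase gene (ENSRNOG00000004359, Rnor_6.0 chr6:132772360-132797616 as spanned by its listed exons, minus strand), had 185, 134 and 157 RPKM in ASA replicates 1, 2 and 3, against 77.7, 102 and 79.95 RPKM in DMSO replicates 1, 2 and 3. The lowest ASA library lay above the highest DMSO library, and the libraries numbered 2 were the nearest to the other group on both sides. The means were 159 ± 25.8 RPKM in ASA and 86.4 ± 13.2 RPKM in DMSO (SD, n = 3 each), a log2 fold change of 0.87 ± 0.20 (SE) and 1.83-fold, with a limma adjusted p of 0.0362. The difference was spread along the gene, with 6 of its 10 listed exons higher in every ASA library than in any DMSO library and a positive exon log2 fold change in all 10, from 0.44 to 1.09. With ASA replicate 1, 2 or 3 left out in turn the limma adjusted p was 0.0502, 0.0152 or 0.125. With DMSO replicate 1, 2 or 3 left out it was 0.141, 0.0533 or 0.179, so the call held in 1 of these 6 fits. The log2 fold change stayed between 0.76 and 0.996 in those 6 fits. With all libraries the limma adjusted p was 0.0573 without the variance trend and 0.0583 with the median exon as the value of the gene.

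Wars2, the mitochondrial tryptophanyl-tRNA synthetase gene (chr2:201172322-201254815, plus strand), had 8.02, 11.0 and 9.19 RPKM in ASA replicates 1, 2 and 3, against 5.94, 4.92 and 4.42 RPKM in DMSO replicates 1, 2 and 3. The groups did not overlap, and here ASA replicate 2 was the highest library. The log2 fold change of 0.87 ± 0.27 (SE) did not pass, with a limma adjusted p of 0.0738, which lay between 0.0546 and 0.307 with 1 library left out. All 6 listed exons of Wars2 were higher in every ASA library than in any DMSO library, with exon log2 fold changes of 0.67 to 1.06.

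Threonine gave the widest gap between the enzymes of the compartments. Tars2, the mitochondrial threonyl-tRNA synthetase gene (ENSRNOG00000057194, chr2:197861287-197878127, minus strand), had 60.5, 53.9 and 62.5 RPKM in ASA replicates 1, 2 and 3, against 36.6, 39.3 and 37.3 RPKM in DMSO replicates 1, 2 and 3. All ASA libraries were above all DMSO libraries, with means of 59.0 ± 4.50 RPKM in ASA and 37.7 ± 1.39 RPKM in DMSO (SD, n = 3 each). Tars2 thus rose by 0.64 ± 0.17 (log2, SE), 1.56-fold, with a limma adjusted p of 0.0483, and 12 of its 18 listed exons did not overlap between the groups while all 18 were positive. Leaving out ASA replicate 1, 2 or 3 gave Tars2 a limma adjusted p of 0.0627, 0.0170 or 0.152, and leaving out DMSO replicate 1, 2 or 3 gave 0.180, 0.106 or 0.228, so this call too held in 1 of 6 fits. With all libraries it was 0.0735 without the variance trend and 0.0641 with the median exon. Tars1, its cytosolic counterpart (chr2:61399726-61413988, minus strand), had 148, 94.8 and 139 RPKM in ASA replicates 1, 2 and 3, against 158, 169 and 161 RPKM in DMSO replicates 1, 2 and 3. Here the ASA libraries were the lower ones without overlap, but ASA replicates 1 and 3 lay just under the DMSO libraries and the log2 fold change of -0.38 ± 0.21 (SE) had a limma adjusted p of 0.260. Of the 17 listed exons of Tars1, 13 were lower in every ASA library. The ratio of Tars1 to Tars2 RPKM was 2.44, 1.76 and 2.22 in the ASA libraries and 4.32, 4.30 and 4.32 in the DMSO libraries, a difference of -1.02 between the log2 fold changes that was not tested.

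For serine the cytosolic enzyme was the one higher in ASA. Sars1, the most abundant member (chr2:211220013-211235382, minus strand), had 432, 411 and 506 RPKM in ASA replicates 1, 2 and 3, against 266, 373 and 298 RPKM in DMSO replicates 1, 2 and 3. The groups did not overlap, and DMSO replicate 2 came closest to the ASA libraries. Its log2 fold change of 0.54 ± 0.20 (SE) had a limma adjusted p of 0.117, and 6 of its 12 listed exons were higher without overlap. Sars2, the mitochondrial seryl-tRNA synthetase gene, had 12.6, 5.31 and 8.48 RPKM in the ASA libraries and 11.3, 8.75 and 10.1 RPKM in the DMSO libraries, and the groups overlapped. The ratio of Sars1 to Sars2 was 34.4, 77.4 and 59.7 in the ASA libraries and 23.5, 42.6 and 29.6 in the DMSO libraries.

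**Figure D3:**
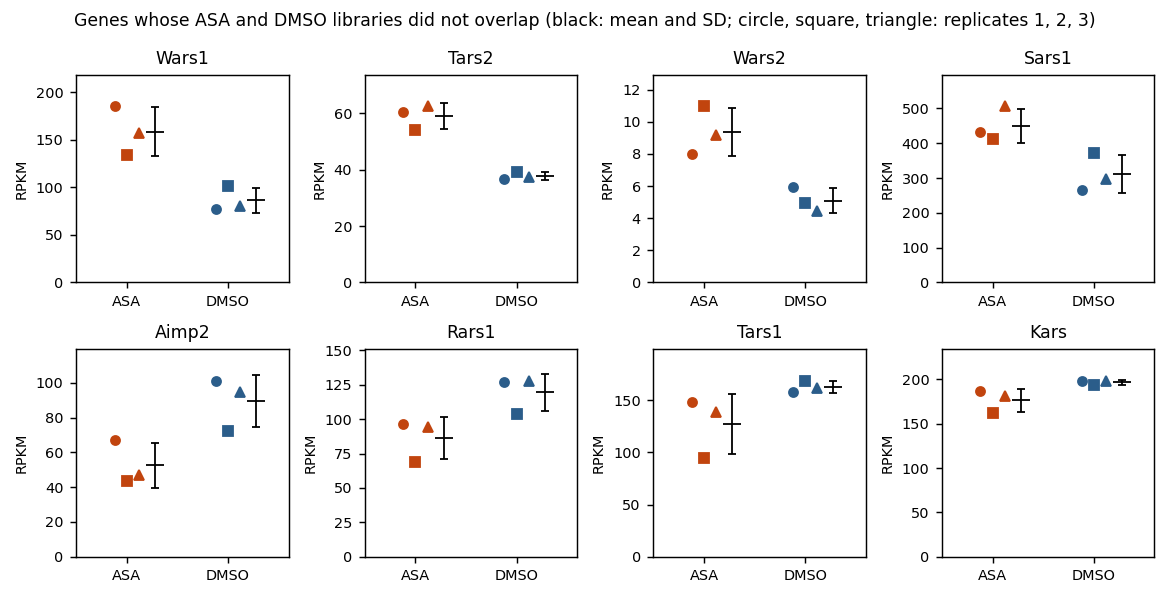
RPKM of the 8 genes whose ASA (left) and DMSO (right) libraries did not overlap, 1 point per library with the mean and SD (n = 3) in black, the upper row higher and the lower row lower in ASA. Each axis starts at 0, and the lowest ASA value of Wars1 (134 RPKM) and Tars2 (53.9 RPKM) lies above the highest DMSO value (102 and 39.3 RPKM).

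Of the 20 cytosolic genes, 12 are in a list of synthetase genes described as ATF4 targets in human or mouse cells: Aars, Cars, Eprs, Gars, Iars1, Lars1, Mars1, Nars1, Sars1, Tars1, Wars1 and Yars1, for alanine, cysteine, glutamate with proline, glycine, isoleucine, leucine, methionine, asparagine, serine, threonine, tryptophan and tyrosine. With all 6 libraries 1 of the 12 passed the test (Wars1), 8 of 12 had a positive log2 fold change and the median was 0.10. Eprs had 310, 161 and 324 RPKM in ASA replicates 1, 2 and 3, against 173, 271 and 189 RPKM in DMSO replicates 1, 2 and 3. Mars1 had 402, 227 and 346 RPKM in ASA replicates 1, 2 and 3, against 223, 323 and 251 RPKM in DMSO replicates 1, 2 and 3. In both genes ASA replicates 1 and 3 were above all DMSO libraries, ASA replicate 2 was among or below the DMSO values, and DMSO replicate 2 was the highest of its group.

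The libraries numbered 2 held the same place within their own group in all 12 genes. DMSO replicate 2 was the highest DMSO library for 12 of the 12 genes, against 2 of the other 8 cytosolic genes, 6 of the 16 mitochondrial genes and 36.4% of all tested genes. ASA replicate 2 was the lowest ASA library for 12 of the 12, and for 7 of the other 8 cytosolic genes, 13 of the 16 mitochondrial genes and 59.1% of all tested genes. The median of the 12 genes relative to the DMSO mean was 0.44, -0.43 and 0.41 (log2) in ASA replicates 1, 2 and 3, and -0.19, 0.23 and -0.04 in DMSO replicates 1, 2 and 3. The other 8 cytosolic genes had medians of -0.01, -0.57 and -0.07 in the ASA libraries and 0.03, -0.07 and 0.05 in the DMSO libraries. Over all tested genes these medians were 0.08, -0.28 and 0.06 in the ASA libraries and 0.03, -0.03 and 0.00 in the DMSO libraries. Libraries share their depth and composition across all genes, and these counts are a description with no test.

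**Figure D4:**
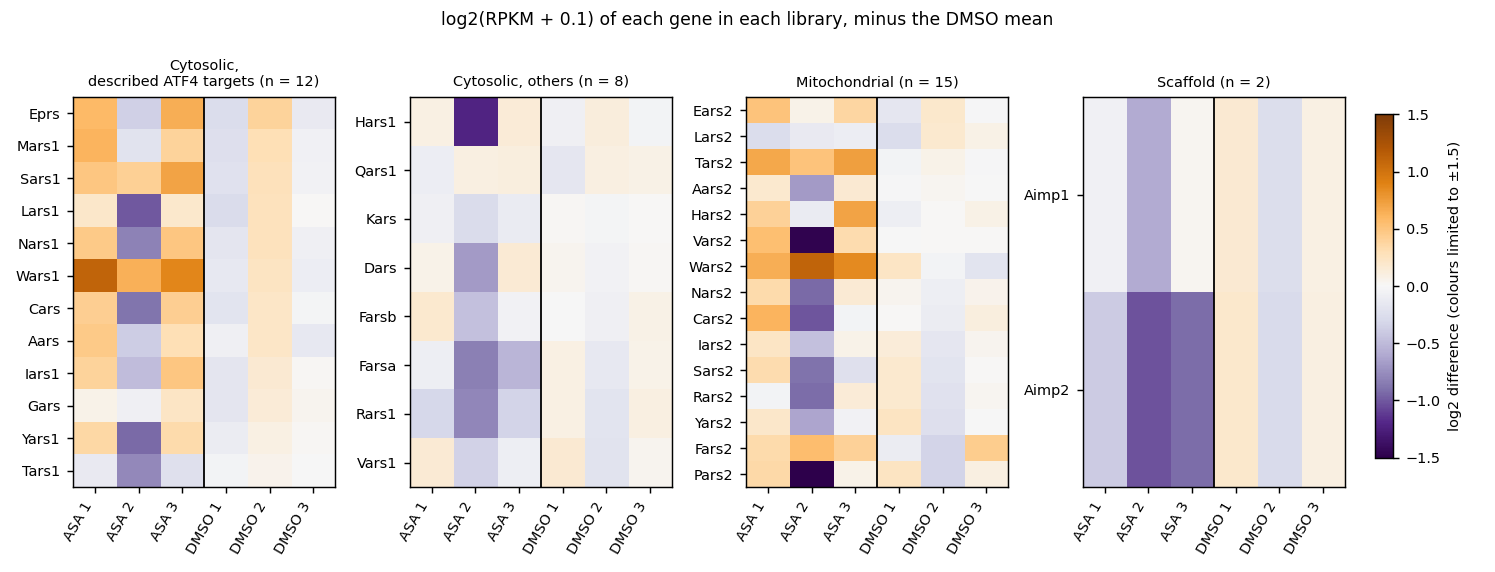
Colour map of log2(RPKM + 0.1) minus the DMSO mean for each gene (down the page) in each library (ASA left of the black line, DMSO right), for the 12 described ATF4 targets, the other 8 cytosolic genes, 15 mitochondrial genes and the 2 scaffold genes, with colours limited to ±1.5. In the first panel ASA replicates 1 and 3 are mostly orange (medians 0.44 and 0.41), ASA replicate 2 is mostly purple (median -0.43) and DMSO replicate 2 is pale orange (median 0.23).

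Leaving out both libraries numbered 2, a setting chosen with this pattern known, changed what passed. Of all tested genes 13.9% were then called higher and 11.4% lower. Among the members 9 were called higher and 1 lower. The higher ones included the cytosolic Wars1, Eprs, Sars1, Mars1, Nars1, Cars and Iars1 and the mitochondrial Tars2, and the lower one was the scaffold gene Aimp2. All 7 cytosolic genes called are in the list of described ATF4 targets, so 7 of 12 of that list passed against 0 of the other 8 cytosolic genes. The setting itself favours this contrast. In all 12 genes it drops the highest DMSO and the lowest ASA library, which raises each of the 12 fold changes. DMSO replicate 2 was the highest DMSO library for only 2 of the other 8, so no conclusion is drawn from the contrast. The log2 fold changes of the 7 called cytosolic genes ran from 0.52 for Iars1 (limma adjusted p of 0.0477) to 1.11 for Wars1 (limma adjusted p of 0.00672), with 0.81 for Eprs and 0.73 for Sars1. Nars1, the asparaginyl-tRNA synthetase gene, depended on these libraries, with 303, 125 and 308 RPKM in ASA replicates 1, 2 and 3, against 193, 263 and 209 RPKM in DMSO replicates 1, 2 and 3. Its log2 fold change was 0.04 ± 0.36 (SE) with all libraries and 0.60 without both libraries numbered 2. Leaving out ASA replicate 2 alone gave calls for 3 members, all higher and Wars1 and Tars2 among them, against 12.9% of all tested genes called higher and 8.07% lower in that fit.

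The remaining described targets did not pass in any fit that left out libraries. Aars had 410.5, 228 and 366 RPKM in ASA replicates 1, 2 and 3, against 283, 346 and 269 RPKM in DMSO replicates 1, 2 and 3, with a log2 fold change of 0.13 ± 0.25 (SE). Yars1 had 228, 93.5 and 224 RPKM in the ASA libraries and 165, 189 and 180.3 RPKM in the DMSO libraries. Both genes had ASA replicates 1 and 3 above every DMSO library and ASA replicate 2 below every one. Lars1 had 142, 61.3 and 141 RPKM in the ASA libraries and 102, 148 and 123 RPKM in the DMSO libraries, so its groups overlapped even apart from ASA replicate 2. Gars varied least, with 255 to 314 RPKM in ASA and 238 to 297 RPKM in DMSO and a log2 fold change of 0.07 ± 0.18 (SE).

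The other 8 cytosolic genes were Rars1, Farsa, Farsb, Kars, Vars1, Qars1, Dars and Hars1. With all 6 libraries 7 of their 8 log2 fold changes were negative, with a median of -0.16 and none past the test. This direction depended on ASA replicate 2. Without that library 5 of the 8 were positive, with a median of 0.02. Without both libraries numbered 2, 4 of the 8 were positive, with a median of -0.02. Rars1, the arginyl-tRNA synthetase gene (chr10:20633734-20658053, minus strand), had 96.2, 68.7 and 94.4 RPKM in ASA replicates 1, 2 and 3, against 127, 104 and 128 RPKM in DMSO replicates 1, 2 and 3. Its groups did not overlap, 13 of its 15 listed exons were lower in every ASA library, and the log2 fold change of -0.48 ± 0.20 (SE) had a limma adjusted p of 0.156. Farsa, the alpha subunit gene of cytosolic phenylalanyl-tRNA synthetase, had 100, 60.2 and 73.5 RPKM in the ASA libraries and 113, 96.0 and 111 RPKM in the DMSO libraries, with overlap through ASA replicate 1. Of the values of Farsa that could be checked 23.1% were not whole reads, so its level is uncertain. This share was also 16.1% for Vars2, 14.1% for Iars2, 13.6% for Mars1, 13.2% for Tars1 and 12.3% for Vars1, so the limit applies to them too. Farsb, the beta subunit gene of cytosolic phenylalanyl-tRNA synthetase, had a log2 fold change of -0.11 ± 0.21 (SE), and its groups overlapped.

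Kars, the lysyl-tRNA synthetase gene used in both compartments, had 187, 162 and 181 RPKM in ASA replicates 1, 2 and 3, against 199, 193 and 198 RPKM in DMSO replicates 1, 2 and 3. The groups did not overlap, but the distance was small, with a log2 fold change of -0.16 ± 0.16 (SE) and a limma adjusted p of 0.519. Qars1, the glutaminyl-tRNA synthetase gene, was the steadiest of the 8 with 137, 158 and 160 RPKM in the ASA libraries and 131, 158 and 155 RPKM in the DMSO libraries, although 19.6% of its checked values were not whole reads. The log2 fold changes of Vars1, Dars and Hars1, for valine, aspartate and histidine, were -0.09, -0.16 and -0.33, each with overlapping groups and ASA replicate 2 as the lowest library.

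The multisynthetase complex was read from its enzymes and its scaffold genes. Of the 8 enzymes of the complex (Eprs, Iars1, Lars1, Qars1, Mars1, Kars, Rars1 and Dars) 0 passed the limma test, 1 had an unadjusted p under 0.05, 4 were positive and the median log2 fold change was -0.06. Aimp2, a scaffold gene (ENSRNOG00000001044, chr12:12738892-12748240, plus strand), had 67.3, 43.5 and 46.8 RPKM in ASA replicates 1, 2 and 3, against 101, 72.5 and 94.5 RPKM in DMSO replicates 1, 2 and 3. All ASA libraries were below all DMSO libraries, in the gene and in each of its 4 listed exons. The log2 fold change of -0.78 ± 0.23 (SE) had a limma adjusted p of 0.0683, which was 0.0317 without ASA replicate 1 and 0.0338 without both libraries numbered 2. Aimp1, another scaffold gene, had 43.9, 30.4 and 47.0 RPKM in the ASA libraries and 51.6, 38.4 and 48.9 RPKM in the DMSO libraries, with overlap. Eef1e1, which encodes a further scaffold protein of the complex and is no member, had 33.8, 23.3 and 31.9 RPKM in the ASA libraries and 49.6, 31.4 and 40.6 RPKM in the DMSO libraries, with a limma adjusted p of 0.268.

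The mitochondrial enzymes other than Tars2 and Wars2 mostly had negative log2 fold changes with all 6 libraries, and none passed the test. Positive log2 fold changes were found for Fars2 (0.43), Hars2 (0.33) and Ears2 (0.31), for phenylalanine, histidine and glutamate. Negative ones were found for Iars2 (-0.06), Aars2 (-0.11), Nars2 (-0.14), Cars2 (-0.15), Yars2 (-0.16), Lars2 (-0.16), Vars2 (-0.20), Sars2 (-0.27), Rars2 (-0.27) and Pars2 (-0.83). The standard errors of these 13 genes ran from 0.20 for Lars2 to 0.80 for Pars2, and their groups overlapped. The negative lean depended on ASA replicate 2. Without that library 15 of the 16 mitochondrial genes were positive, with a median log2 fold change of 0.27. Pars2, the prolyl-tRNA synthetase gene with 1 listed exon, had 7.33, 0.697 and 6.04 RPKM in ASA replicates 1, 2 and 3, against 6.84, 4.55 and 6.17 RPKM in DMSO replicates 1, 2 and 3. Its value rested on ASA replicate 2, and without that library the log2 fold change was 0.20. Vars2, the mitochondrial valyl-tRNA synthetase gene, likewise had 13.6, 3.28 and 11.6 RPKM in the ASA libraries and 9.21, 9.29 and 9.26 RPKM in the DMSO libraries, with a log2 fold change of 0.44 without ASA replicate 2.

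Hars2, the mitochondrial histidyl-tRNA synthetase gene, had 30.4, 21.1 and 37.6 RPKM in ASA replicates 1, 2 and 3, against 21.7, 23.1 and 24.2 RPKM in DMSO replicates 1, 2 and 3. ASA replicates 1 and 3 were above the DMSO libraries and ASA replicate 2 was below them. Its log2 fold change was 0.33 ± 0.25 (SE) with all libraries, and its log2 fold change without ASA replicate 2 was 0.56, with a limma adjusted p of 0.0513. Hars2 lies head to head with the cytosolic Hars1 on chromosome 18, on opposite strands, with 277 bases between their first listed exons (Rnor_6.0).

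Set as pairs for the 13 amino acids with a cytosolic and a mitochondrial gene in the table, the ratio of cytosolic to mitochondrial RPKM ran from 0.919 for histidine to 77.4 for serine, both in ASA replicate 2. Isoleucine and histidine had the genes nearest to balance among the 13. There was 1 to 1.68 times as much Iars1 as Iars2 over the 6 libraries, and 0.919 to 2.13 times as much Hars1 as Hars2. The ratio was lower in every ASA library than in any DMSO library for threonine, given above, and for histidine. For histidine it was 1.58, 0.919 and 1.33 in the ASA libraries and 1.98, 2.13 and 1.81 in the DMSO libraries. For tryptophan the difference between the log2 fold changes was 0.00. These differences were not tested. Each ratio is taken within 1 library, so a factor common to both genes of a library drops out of it.

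By the structural class of the catalytic domain, which splits the synthetases into class I and class II, no contrast was seen. Class I had 17 genes in the table, 1 called higher (Wars1), 6 positive and a median log2 fold change of -0.08. Class II had 18, 1 called higher (Tars2), 8 positive and a median of -0.11. Eprs, which joins a domain of each class, was left out of both, as were the scaffold genes.

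The exon values gave a view that does not depend on summing a gene. The table listed 366 of the 391 annotated exons of the cytosolic genes, 230 of 249 of the mitochondrial genes and 10 of 11 of the scaffold genes. Of all 118147 exons in the table, 17.3% were higher and 16.6% lower in every ASA library than in any DMSO library. For the cytosolic genes these were 22 exons higher (6.01%) and 35 lower (9.56%), and for the mitochondrial genes 27 higher (11.7%) and 9 lower (3.91%). The higher cytosolic exons included 6 each of Wars1 and Sars1, and the lower ones 13 each of Rars1 and Tars1. The higher mitochondrial exons were mostly of 2 genes, with 12 of Tars2 and 6 of Wars2, and the lower ones included 3 each of Lars2 and Rars2. Exons of 1 gene share its RNA and are not independent.

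Fars2, the mitochondrial phenylalanyl-tRNA synthetase gene (ENSRNOG00000016135, chr17:29007139-29360803, minus strand), differed along its length, and was singled out after its exon values were seen. Its first 3 exons in the order of transcription had a mean of 28.6, 40.5 and 32.5 RPKM in ASA replicates 1, 2 and 3, against 15.5, 16.6 and 16.5 RPKM in DMSO replicates 1, 2 and 3. Each of the 3 was higher in every ASA library, by 1.02 to 1.07 on the log2 scale. Exons 4, 6 and 8 had a mean of 49.6, 48.2 and 49.8 RPKM in the ASA libraries and 46.4, 33.4 and 79.1 RPKM in the DMSO libraries, with the widest spread inside DMSO. Exons 5 and 7 were low everywhere, at 0.207 to 4.48 RPKM in ASA and 1.68 to 10.9 RPKM in DMSO, and lower in every ASA library. The ratio of the first 3 exons to exons 4, 6 and 8 was 0.576, 0.839 and 0.653 in the ASA libraries and 0.334, 0.497 and 0.209 in the DMSO libraries, without overlap. When the median exon stood for the gene, Fars2 had a log2 fold change of 0.96 and a limma adjusted p of 0.0383, against 0.43 ± 0.24 (SE) and a limma adjusted p of 0.275 for the sum of its exons. In every library but ASA replicate 2 that median lay between exons 2 and 3. It therefore restates the difference of the first 3 exons and is no separate estimate for the gene.

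**Figure D5:**
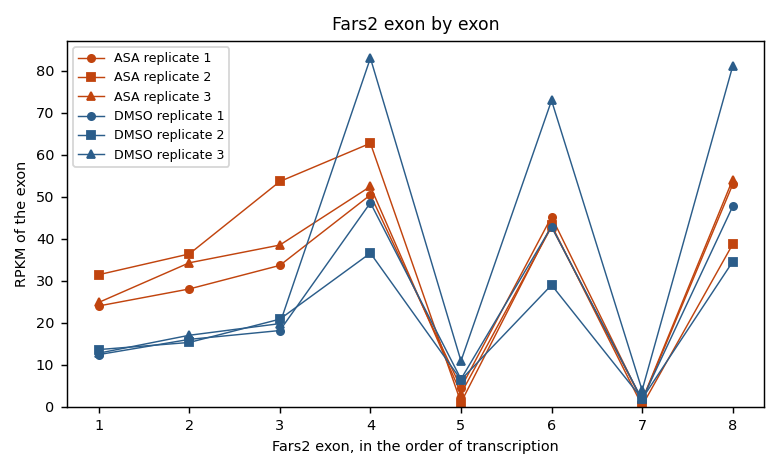
RPKM of each of the 8 exons of Fars2 in the order of transcription, 1 line per library, ASA in orange and DMSO in blue. At exons 1 to 3 the ASA lines (23.98 to 53.7 RPKM) lie above the DMSO lines (12.4 to 20.8 RPKM), while at exons 4, 6 and 8 the groups overlap.

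Genes upstream and around the synthetases were taken from lists. Of 34 tested genes of the amino acid and integrated stress response, 12 (35.3%) were called higher and 0 lower in the limma test. Of all tested genes 6.21% were called higher and 4.99% lower. The 12 were Asns, Atf3, Cebpb, Cebpg, Ddit3, Eif4ebp1, Gdf15, Ppp1r15a, Sesn2, Slc6a9, Slc7a1 and Trib3. The median log2 fold change of the list was 0.99, against -0.06 over all tested genes. The count was 7 without the variance trend, and it was 0 when ASA replicate 3 or either of DMSO replicates 1 and 3 was dropped. Without both libraries numbered 2 it was 21, all higher, where 13.9% of all tested genes were called higher and 11.4% lower. That setting drops the highest DMSO library in 31 of the 34 genes, so no conclusion is drawn from the larger count. Ddit3, the transcription factor CHOP, had 716, 3599 and 2878 RPKM in ASA replicates 1, 2 and 3, against 166, 344 and 190 RPKM in DMSO replicates 1, 2 and 3. Trib3, a pseudokinase gene, had 409, 227 and 553 RPKM in the ASA libraries and 13.2, 81.7 and 20.4 RPKM in the DMSO libraries. Both were higher in every ASA library, but ASA replicate 2 was the highest for Ddit3 and the lowest of its group for Trib3.

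Asns, the asparagine synthetase gene, had 290, 383 and 312 RPKM in ASA replicates 1, 2 and 3, against 126, 222 and 154 RPKM in DMSO replicates 1, 2 and 3, a log2 fold change of 1.003 ± 0.24 (SE) with a limma adjusted p of 0.0423. Atf4 itself had 897, 3204 and 1459 RPKM in the ASA libraries and 450.4, 709 and 500 RPKM in the DMSO libraries, without overlap but with a limma adjusted p of 0.0616. In both genes ASA replicate 2 had the highest value, although it was the lowest of all 6 libraries for 28 of the 38 members (and for 45.8% of all tested genes). DMSO replicate 2 was the highest DMSO library for 31 of the 34 genes of the list (91.2%), as it was for the 12 described synthetase targets, against 36.4% of all tested genes. ASA replicate 2 was the lowest ASA library for 20 of the 34 (58.8%), near the 59.1% of all tested genes, and for 12 of those 12. The median of the list relative to the DMSO mean was 0.85, 0.70 and 0.94 (log2) in ASA replicates 1, 2 and 3, and -0.40, 0.60 and -0.10 in DMSO replicates 1, 2 and 3.

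Among 13 genes that sense uncharged tRNA or set eIF2 activity, 1 (7.69%) was called higher, near the 6.21% of all tested genes. Ppp1r15b, a regulatory subunit gene of an eIF2 phosphatase, had 36.2, 97.4 and 76.0 RPKM in ASA replicates 1, 2 and 3, against 21.7, 26.4 and 22.4 RPKM in DMSO replicates 1, 2 and 3, a log2 fold change of 1.46 ± 0.35 (SE) with a limma adjusted p of 0.0420 (0.0885 without DMSO replicate 2, 0.139 without DMSO replicate 1). Eif2ak4, the gene of the sensor GCN2, had 25.0, 15.9 and 23.6 RPKM in the ASA libraries and 30.9, 29.98 and 29.2 RPKM in the DMSO libraries. The groups of Eif2ak4 did not overlap, and its log2 fold change of -0.50 ± 0.23 (SE) had a limma adjusted p of 0.187.

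Of 39 tested genes that process, export or modify tRNA or act on charged tRNA, 2 (5.13%) were called higher and 2 lower, near the 6.21% and 4.99% of all tested genes. The median log2 fold change was -0.29, and it was -0.10 without ASA replicate 2. Relative to the DMSO mean, the list had medians of -0.002, -0.73 and -0.05 (log2) in ASA replicates 1, 2 and 3. Dropping ASA replicate 1 or 2 gave 7 or 8 calls in this list, while calls over all 12502 tested genes rose from 1400 to 2015 or 2617. Dropping ASA replicate 3 or either of DMSO replicates 1 and 3 gave 0 calls in the list. Xpot, the gene of the tRNA export receptor exportin-t, had 206, 214 and 240.1 RPKM in ASA replicates 1, 2 and 3, against 109, 153 and 109 RPKM in DMSO replicates 1, 2 and 3, and rose by 0.85 ± 0.19 (log2, SE) with a limma adjusted p of 0.0370. Xpot was higher in every ASA library, and ASA replicate 2 lay with the others of its group.

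The genes that fell act in mitochondria. Gatb encodes a subunit of the amidotransferase that completes glutamine charging there, since mitochondria have no glutaminyl-tRNA synthetase of their own. It had 7.995, 5.12 and 5.51 RPKM in ASA replicates 1, 2 and 3, against 20.3, 15.9 and 19.2 RPKM in DMSO replicates 1, 2 and 3, and fell by 1.58 ± 0.27 (log2, SE) with a limma adjusted p of 0.0197. Hsd17b10, which encodes a subunit of the mitochondrial RNase P that trims tRNA, had 92.8, 84.9 and 73.8 RPKM in the ASA libraries and 156, 146 and 160 RPKM in the DMSO libraries, and fell with a limma adjusted p of 0.0242 (0.0533 without DMSO replicate 2). No library of either gene crossed into the other group. Ears2, which charges the tRNA that this amidotransferase acts on, had 2.07, 1.49 and 1.86 RPKM in the ASA libraries and 1.25, 1.65 and 1.40 RPKM in the DMSO libraries, with overlap and a limma adjusted p of 0.549. Pstk and Trit1, which act on selenocysteine tRNA and on an adenosine beside the anticodon, were higher in every ASA library with limma adjusted p-values of 0.0506 and 0.0609.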

How the data were processed

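Libraries were made from polyadenylated RNA with a directional kit, per the labels' protocols. Per the submitters' processing notes, which state no role or order, the tools were TopHat2 2.1.0, Bowtie2, cutadapt 1.14, Trim Galore 0.4.1 and edgeR 3.26.8, and the build was Rnor_6.0. How reads were counted, with which annotation release and with what use of strand is not given in the sources used here. Reads of overlapping or antisense genes therefore cannot be told apart. The authors deposited log2 RPKM per exon, with position and length columns. Every listed exon had over 10 reads in at least 4 of the 6 libraries.

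After removal of a constant of 0.00292 reads per 1000000, 95.9% to 97.0% of values under 2000 reads were whole reads within 0.02 read, and 2.78% to 3.80% were odd multiples of 0.5 read. Gene RPKM was the sum of reads over listed exons per kilobase per 1000000 reads. No replicates agreed within sampling noise (chi-square per degree of freedom of 119 to 1083), and all 6 were kept.

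ASA was compared with DMSO by limma 3.58.1 in R 4.3.3 (lmFit, eBayes with a variance trend, two-sided, no covariates) on log2(RPKM + 0.1) over the 12502 genes whose mean RPKM reached 0.5 (299 did not), with Benjamini-Hochberg adjustment over all of them. A fold change is the difference of group means on that scale, which understates low genes. The fit was tested on simulated data. By rule, named genes were every member, the 6 genes of each of 3 lists with the smallest p, and Atf4, Ddit3, Asns, Trib3, Xpot and Eef1e1. Some genes that enter the counts are not reported here. Members, lists and settings were chosen with earlier results of these data known. The labels give no dose, batch or pairing. Alternatives changed the pseudocount, the filter, the scaling or the variance model, or used library weights, the median exon, voom on recovered reads, and libraries left out.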

Additional observations from a re-analysis of the deposited data

How the results depend on the processing

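Pseudocounts of 0.01 and 1, no filter or a mean RPKM of at least 2, and voom on the recovered reads (1382 genes called) changed no direction and no call among the 38 genes, apart from Ears2, which the stricter filter left out. No paired analysis was possible because the labels carry no replicate numbers that the groups share. Without the variance trend, 0 cytosolic and 0 mitochondrial genes and 7 stress response genes were called, and the calls of Asns, Ppp1r15b and Xpot were lost too. With the median exon, 0 cytosolic genes were called and Fars2 was called in place of Tars2, Asns and Ppp1r15b lost their calls as they did with median-ratio scaling, and Nars1 (-0.37) and Qars1 (-0.0037) turned negative. Yars1 (0.049) and Cars (0.087) turned positive with quantile normalization, and Cars (0.031) with median-ratio scaling.

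Library weights from limma ran from 0.0544 (ASA replicate 2) to 31.8 (DMSO replicate 3), so the fit rested mainly on ASA replicate 3 and DMSO replicate 3. It called 10775 genes, 19 cytosolic, 10 mitochondrial, 32 stress response and 32 tRNA genes, with the log2 fold changes of Vars2 (0.32), Iars2 (0.028), Dars (0.14), Yars1 (0.31), Rars2 (0.11), Nars2 (0.11), Lars1 (0.19), Cars (0.44), Aars2 (0.17) and Hars1 (0.19) now positive and Fars2 (-0.024) negative.

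Without both libraries numbered 2, 3153 genes, 7 cytosolic, 2 mitochondrial, 21 stress response and 8 tRNA genes were called, and the cytosolic median was 0.275. Now positive were Vars2 (0.44), Iars2 (0.063), Dars (0.084), Yars1 (0.39), Pars2 (0.035), Nars2 (0.20), Farsb (0.027), Cars2 (0.23), Lars1 (0.335), Cars (0.53), Aars2 (0.19) and Hars1 (0.18).

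With each library left out in turn, the calls numbered 0 to 2617 over all genes, 0 to 1 for cytosolic, 0 to 2 for mitochondrial, 0 to 14 for stress response and 0 to 8 for tRNA genes. The mitochondrial median ran from -0.23 to 0.27 and the cytosolic minus the mitochondrial median from -0.095 to 0.14. Genes whose log2 fold change crossed 0 were Vars2 (-0.57 to 0.44), Vars1 (-0.22 to 0.038), Iars2 (-0.20 to 0.15), Dars (-0.31 to 0.11), Yars1 (-0.30 to 0.34), Pars2 (-1.41 to 0.20), Rars2 (-0.48 to 0.050), Gars (-0.018 to 0.14), Nars2 (-0.38 to 0.25), Farsb (-0.25 to 0.068), Cars2 (-0.53 to 0.29), Iars1 (-0.046 to 0.44), Nars1 (-0.18 to 0.48), Lars1 (-0.41 to 0.20), Aars (-0.043 to 0.38), Sars2 (-0.57 to 0.047), Cars (-0.23 to 0.42), Yars2 (-0.34 to 0.075), Aars2 (-0.26 to 0.17), Hars1 (-0.57 to 0.12) and Qars1 (-0.048 to 0.11). For 16 of the 38 genes it was ASA replicate 2 whose removal changed the sign.

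There were 3 libraries a group, of which ASA replicate 2 had the fewest reads and the highest median scatter between exons. Ears2 had a mean of 66 reads per library and the other members at least 656. The causes of the changes between settings were not tested.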
